A study of Mus musculus with 20 samples.

Results

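Interferon-stimulated genes were followed across 20 whole mouse tracheas, each measured on 1 one-colour Agilent whole mouse genome array. The set was a list of 41 genes known to be induced by interferons. Its members were found by matching each name, or an older name, to the gene names of the array, which gave 36 of the 41 genes and 54 probes, out of 27962 gene names and 41174 probes on the array. The other 5 genes were found only through a RefSeq transcript or synonym (Irf9 as Isgf3g, Dhx58 as D11Lgp2e, Gbp3 as Gbp4, Irgm1 as Irgm and Irgm2 as Iigp2). These had 9 probes and are counted apart.

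The 4 groups held 5 tracheas each: uninjured WT, uninjured Myd88KO, injured WT and injured Myd88KO. WT mice were C57/Bl6, and Myd88KO mice lacked Myd88, an adaptor that Toll-like and interleukin-1 receptors need to signal. Injury meant 2% polidocanol given into the airway 3 days before collection. Polidocanol is a detergent that strips the surface epithelium. The labels give an age of 4 months for all groups, whereas the study states a range of ages that starts at 4 months. Per the study, both sexes were used and the genotypes were bred as separate in-house colonies, with the knockout backcrossed before use. Genotype therefore cannot be told apart from colony, litter or remaining strain background. The knockout affects every cell type of the mouse, and the labels give no sex for a sample.

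Interferons bind receptors on the cell surface, and the receptor-bound kinases Jak1, Tyk2 and Jak2 then activate transcription factors. Type I and type III interferons act mainly through a complex that holds Stat2 and Irf9 and binds the interferon-stimulated response element of a promoter. Type II interferon acts mainly through the gamma-activated site. The induced genes include sensors of foreign nucleic acid, effectors that block viral replication, GTPases that attack the compartments of intracellular microbes, and regulators that raise or dampen the response. Myd88 lies upstream of interferon production only for some Toll-like receptors, whereas the cytosolic sensors act without it.

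The promoters of the members carried the letters of these elements more often than the table of all promoters did. A promoter was the RefSeq window (GRCm38.p6) from 250 bases before to 50 bases after an annotated gene start, and 33 of the 41 genes had at least 1 window. Usp18, Dhx58, Zbp1, Mx1, Mx2, Oas2, Parp14 and Iigp1 had none. The core of the response element, written here as GAAANNGAA and searched on both strands, stood in 21 of these 33 genes (63.6%) and in 2638 of all 27025 genes of the table (9.76%). For the gamma-activated site, TTCNNNGAA, which reads alike on both strands, the counts were 12 of 33 (36.4%) and 2582 of 27025 (9.55%). Both motifs stood in 7 of 33 members (21.2%) and in 1.24% of all genes, and matches of the motifs could overlap each other. A match is a description of letters and not a measured binding site. The shares per gene are drawn in the plot of motif shares.

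**Figure D1:**
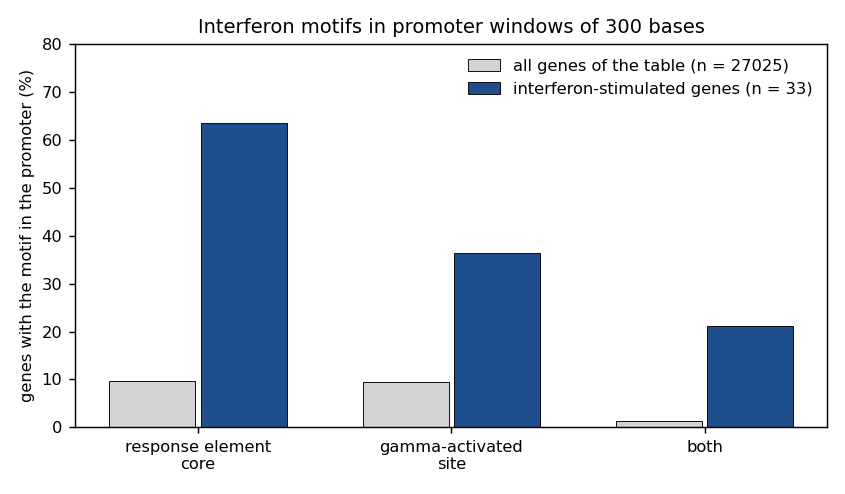
Share of genes (vertical axis, percent) with a match to the response element core, to the gamma-activated site or to both in a promoter window, for the 33 interferon-stimulated genes with a window (dark bars) and all 27025 genes of the table (light bars). The dark bars reach 63.6%, 36.4% and 21.2%, the light bars 9.76%, 9.55% and 1.24%.

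The stretches around the matches are shown for members whose values are described further on, as examples of a promoter with response element cores only, with gamma-activated sites only, and with both. Each is given 5′ to 3′ on the strand of the gene, with every base of a match in capitals, and ends before the annotated start. Rsad2 (chr12:26456543-26456591, minus strand), Ifit3 (chr19:34583354-34583455, plus strand) and Isg15 (chr4:156200856-156200916, minus strand) have response element cores, Irf1 (chr11:53769904-53769952, plus strand) and Irf8 (chr8:120736167-120736233, plus strand) have gamma-activated sites, and Irgm2 (chr11:58214882-58214941, plus strand) and Tgtp, now named Tgtp1 (chr11:48992295-48992354, minus strand), have both.
Rsad2: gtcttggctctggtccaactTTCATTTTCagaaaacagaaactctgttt
Ifit3: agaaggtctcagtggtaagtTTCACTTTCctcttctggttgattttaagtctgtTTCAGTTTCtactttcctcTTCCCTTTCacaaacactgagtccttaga
Isg15: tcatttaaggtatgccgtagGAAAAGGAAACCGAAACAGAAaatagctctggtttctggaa
Irf1: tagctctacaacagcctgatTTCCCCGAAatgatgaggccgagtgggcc
Irf8: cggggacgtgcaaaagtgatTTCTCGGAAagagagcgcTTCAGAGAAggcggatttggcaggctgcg
Irgm2: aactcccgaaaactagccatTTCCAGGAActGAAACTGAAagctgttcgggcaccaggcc
Tgtp: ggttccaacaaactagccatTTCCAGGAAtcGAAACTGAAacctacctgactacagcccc

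Signal is given as log2 intensity after the 75th percentile of each array was set to 0, so a difference of 1 is a 2-fold difference, and differences are given ± SE with n = 5 arrays in a group. Between 57.5% and 67.8% of spots were well above background on an array, the lowest share being that of injured Myd88KO replicate 5. Of the 54 member probes, 48, covering 35 genes, passed the filter for detection (10 or more of the 20 arrays well above background) and were tested with limma among 26063 probes. The 6 that were not tested were further probes of Ddx58, Ifih1, Ifit2, Oas2 and Tgtp and the only probe of Oas1g. On 39 member probes the signal was well above background on all 20 arrays. Replicate numbers follow the slides, of which there were 5, with all 4 groups on each. The p-values measure the spread between these tracheas. Myd88 itself was measured at 1.94 to 2.28 in uninjured WT, 1.60 to 2.04 in uninjured Myd88KO, 2.36 to 2.80 in injured WT and 1.54 to 2.09 in injured Myd88KO. Whether its probe lies in the deleted part is not given in the sources used here, so it does not check the labels. The comparisons share groups of arrays, so their values stand side by side and are not independent of each other.

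In injured WT tracheas the interferon-stimulated genes sat higher than in uninjured WT tracheas as a group, but few passed the test one by one. The median difference of the 48 member probes was 0.50 and 39 of 48 were above 0, against a median of 9.91e-05 and 50% above 0 over all tested probes. Only Irf8, Zbp1 and Ifitm3 rose at adjusted p under 0.01, 3 of 48 probes or 6.25%, near the 5.26% of all tested probes called in that comparison. With the slide as a block, 6 member probes of 5 genes passed, the further genes being Rsad2 and Oas3. At adjusted p under 0.05, 16 member probes of 13 genes were higher (33.3%, against 7.74% of all probes) and 1 was lower (2.08%, against 4.98%). On 8 member probes (16.7%) every injured WT array lay above every uninjured WT array, which held for 7.89% of all probes.

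In Myd88KO tracheas the list did not sit higher after the same polidocanol treatment. The median difference between injured and uninjured Myd88KO was -0.26 and 11 of 48 probes were above 0, against a median of -0.069 and 42.3% above 0 over all probes. No member was called by limma at adjusted p under 0.01, where 0.376% of all probes were. At an unadjusted p under 0.05 there were 8 of 48 member probes and 5077 of all 26063 probes, a smaller share of the members than of all probes. At adjusted p under 0.05, none was higher (1.27% of all probes were) and 1, Usp18, was lower (1.96% of all probes were). Between injured Myd88KO and injured WT the median difference was -0.43 and 8 of 48 were above 0, against -0.034 and 45.3% above 0 for all probes. None was called at adjusted p under 0.01 (0.38% of all probes were), and with the slide as a block 1 was, a probe of Rsad2. At an unadjusted p under 0.05 there were 17 of 48 member probes and 3264 of all 26063 probes. Both members called lower at adjusted p under 0.05 were probes of Rsad2 (4.17%, against 0.449% of all probes). No member was higher there at that threshold, against 0.226% of all probes. Among the 48, no probe had all injured Myd88KO arrays below all injured WT arrays, against 1.26% of all probes.

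The difference between the injury responses, taken as the Myd88KO response minus the WT response, was tested as an interaction. Its median over the member probes was -0.65, with 7 of 48 above 0, against -0.090 and 41.3% above 0 over all tested probes. Neither a member nor any other probe passed the adjusted threshold, and the smallest adjusted p of a member in limma was 0.39. At an unadjusted p under 0.05, 19 member probes of 15 genes were lower (39.6%, against 6.96% of all probes) and none was higher (3.41% of all probes). No single gene was thus shown to respond differently in the genotypes.

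Uninjured Myd88KO tracheas were also slightly higher than uninjured WT tracheas over the list. The median difference was 0.26 and 43 of 48 probes were above 0, against a median of 0.036 and 56.7% above 0 over all tested probes. The slides were uneven. On slides 1 to 5, 29, 28, 43, 38 and 26 of 48 probes were higher, with medians of 0.13, 0.044, 0.92, 0.26 and 0.061. None was called by limma at adjusted p under 0.01 (0.384% of all probes were). At an unadjusted p under 0.05 there were 5 of 48 member probes and 1457 of all 26063 probes. The smallest adjusted p was that of Eif2ak2, the kinase that stops translation when it binds double-stranded RNA, with a difference of 1.00 ± 0.31 (SE) and an adjusted p of 0.323.

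**Figure D2:**
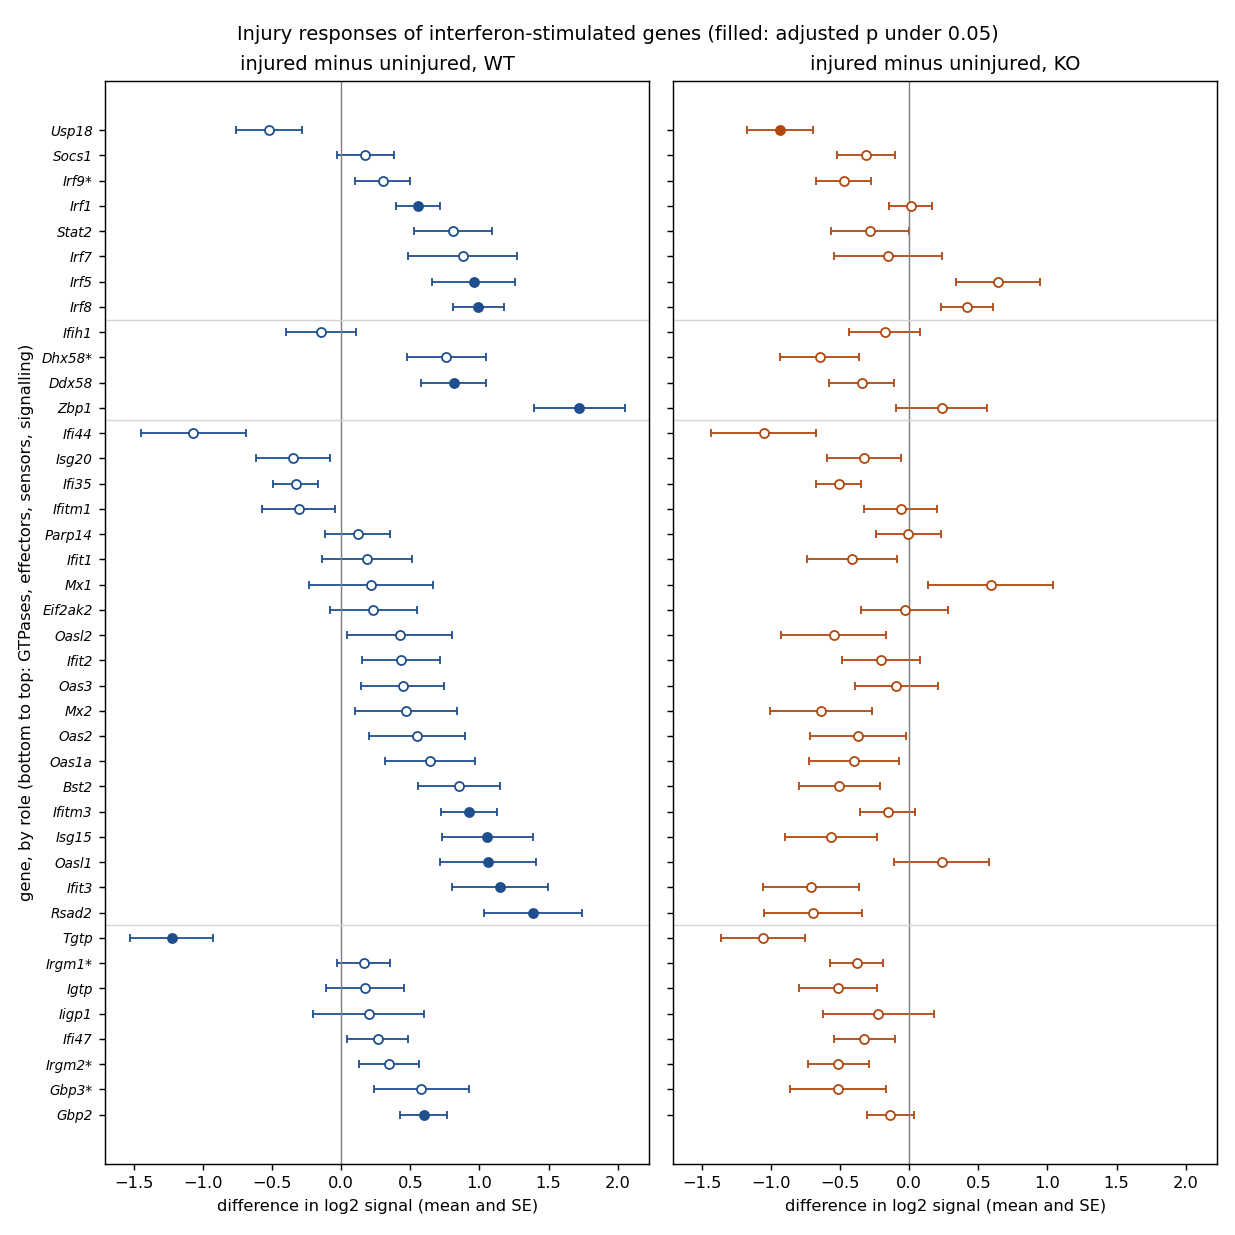
Difference in log2 signal between injured and uninjured tracheas (horizontal axis, mean and SE from the fit) for the brightest tested probe of each gene, in WT (left) and Myd88KO (right), with genes ordered by role. Filled points passed adjusted p under 0.05, and an asterisk marks genes found under an older name. WT points lie mostly to the right of 0, up to 1.72 for Zbp1, and Myd88KO points mostly to the left, down to -1.06 for Tgtp.

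The level of the list differed between tracheas of the same group. Relative to the uninjured WT mean of each probe, the median of the 48 probes was -0.39, -0.041, 0.026, 0.036 and 0.30 on the uninjured WT arrays in ascending order, and 0.077, 0.097, 0.32, 0.35 and 0.53 on the uninjured Myd88KO arrays. On injured WT arrays it was -0.020, 0.30, 0.63, 0.77 and 0.91, and on injured Myd88KO arrays -0.52, 0.11, 0.15, 0.16 and 0.35. All groups overlapped. Injured WT replicate 3 was the lowest of its group on 29 of 48 member probes (60.4%, against 17.7% of all tested probes), and replicate 5 the highest on 26 of 48 (54.2%, against 19.1%). Injured Myd88KO replicate 5 was the lowest of its group on 28 of 48 (58.3%, against 20.7%), and so was uninjured WT replicate 3 (58.3%, against 33.6%). The SD within groups had a median of 0.50 over the member probes and 0.37 over all tested probes.

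Those arrays weigh on the counts. Without injured WT replicate 3, 10 member probes were called in the WT injury comparison in place of 3, and 3 in place of 0, all probes of Rsad2, between injured Myd88KO and injured WT. Without injured Myd88KO replicate 5, 6 were called in the WT injury comparison, the median response of Myd88KO was -0.20 and the median difference between responses was -0.54. Without injured WT replicate 5, the median on injury in WT was 0.45 and 35 of 48 probes were above 0. The median was then -0.33 between the injured groups and -0.57 for the difference between responses. Without uninjured WT replicate 3, 37 of 48 probes were higher in uninjured Myd88KO than in uninjured WT, with a median of 0.21. Within slides, the median of the 48 differences between injured and uninjured WT was above 0 on each of the 5 slides, from 0.30 to 0.93. For Myd88KO injury it ranged from -0.49 to 0.032, for injured Myd88KO against injured WT from -1.50 to 0.13, and for uninjured Myd88KO against uninjured WT from 0.044 to 0.92.

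White blood cell markers moved with the members in some comparisons and against them in others. Macrophage markers (8 tested of 8 found, expressed as their mean relative to uninjured WT) were between -0.28 and 0.19 in uninjured WT, -0.36 and 0.59 in uninjured Myd88KO, 1.33 and 2.77 in injured WT, and -0.21 and 2.10 in injured Myd88KO. Of the 8, 4 rose at adjusted p under 0.01 in WT and none was called in Myd88KO. Over all probes, 5.26% and 0.376% were called in either direction. On injury in Myd88KO all 8 still lay above 0 (median 0.998), whereas the median of the members was -0.26. Neutrophil markers (6 tested of 9 found) ranged from 1.97 to 4.87 in injured WT and from -1.89 to 2.89 in injured Myd88KO, against -0.72 to 1.88 and -2.34 to -0.77 in the uninjured groups. Their low end in injured Myd88KO was replicate 5, the array that was also lowest for the interferon-stimulated genes. On injury in Myd88KO 5 of the 6 neutrophil markers lay above 0 (median 2.3). Between uninjured Myd88KO and uninjured WT the neutrophil median was -1.79 and the macrophage median -0.076, whereas that of the members was 0.26. Of 5 pan-leukocyte markers, 3 rose in WT and none was called in Myd88KO, where all 5 lay above 0 (median 0.63). Among markers of T and natural killer cells (10 tested), B cells (4) and plasmacytoid dendritic cells (3 tested, without Siglech, which was not tested), none was called in either injury comparison, and Gzma was the only one at adjusted p under 0.05 (-1.02 in WT, adjusted p = 0.0207). Of 8 airway epithelial markers, Scgb1a1 and Plunc fell in both genotypes. In each genotype 4 of the 8 lay above 0 on injury, with a median of -0.0029 in WT and 0.015 in Myd88KO. Krt8 was higher in WT, by 0.83 (adjusted p = 0.0318). Scgb1a1 differed by -7.91 in WT and -6.24 in Myd88KO, which weighs heavily on a mean of 8 genes. The mean of the 8, relative to uninjured WT, was -1.73 to -0.53 on injured WT and -1.14 to 0.14 on injured Myd88KO arrays. Uninjured WT arrays lay at -0.18 to 0.26. Injured Myd88KO replicates 5 (0.14) and 1 (-0.074) lay above every injured WT array. Whether the extent of injury was equal in the genotypes was not tested. The part of cell composition in the results was not tested, and in whole tissue fewer cells of a type and less RNA per cell cannot be told apart.

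**Figure D3:**
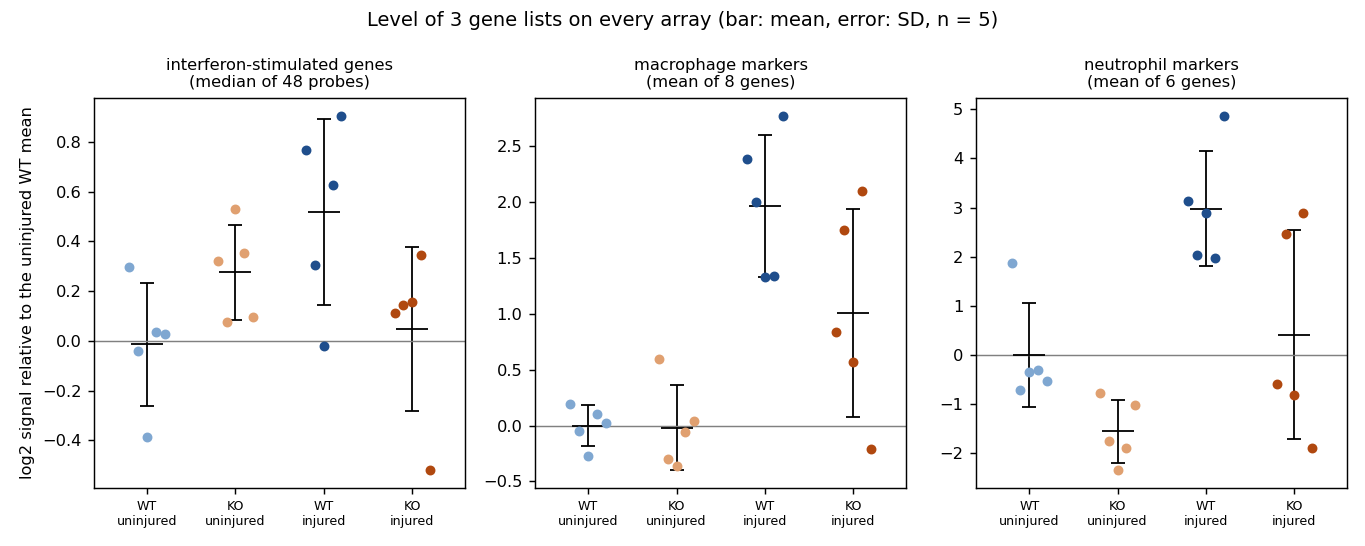
Level of the interferon-stimulated genes (left, median of 48 probes), of macrophage markers (middle, mean of 8 genes) and of neutrophil markers (right, mean of 6 genes) on every array, as log2 signal relative to the uninjured WT mean (vertical axis), in the 4 groups; points are arrays, bars the mean and error bars the SD of 5 arrays. Injured WT arrays lie at -0.020 to 0.91 for the interferon-stimulated genes and at 1.33 to 2.77 for macrophage markers, and 1 injured Myd88KO array is the lowest of its group in all 3 panels.

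Among transcription factors, signal transducers and feedback regulators (9 tested probes of 7 genes), the WT injury difference had a median of 0.81 and 4 of 9 probes were higher at adjusted p under 0.05, against a median of 9.91e-05 and 7.74% higher over all probes. Irf8, a transcription factor that directs macrophage and dendritic cell development, was called. Its brightest probe (chr8:119391398-119391457, as in the files, which state no genome build) read 1.23, 0.95, 0.53, 1.09 and 0.86 on the uninjured WT arrays and 1.97, 2.13, 1.67, 2.04 and 1.83 on the injured WT arrays. The uninjured Myd88KO arrays read 1.56, 1.40, 1.53, 1.16 and 1.06, and the injured ones 2.16, 1.99, 1.44, 2.02 and 1.20. All injured WT arrays lay above all uninjured WT arrays, whereas the Myd88KO groups overlapped. Irf8 rose by 0.99 ± 0.19 (SE) in WT (adjusted p = 0.00214), and the Myd88KO difference was 0.42 ± 0.19 (adjusted p = 0.223). Its other probe differed by 0.97 in WT (adjusted p = 0.041).

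Irf1 activates interferon and interferon-stimulated promoters, and Irf5 acts below Toll-like receptors in macrophages. Irf1 (brightest probe at chr11:53733970-53734029) read 3.85, 3.46, 3.37, 3.49 and 3.66 on uninjured and 4.01, 3.96, 4.26, 4.29 and 4.09 on injured WT arrays. On Myd88KO arrays it read 4.06, 3.55, 3.96, 3.43 and 3.93 uninjured and 4.15, 3.90, 3.77, 3.73 and 3.42 injured. The WT groups did not overlap and differed by 0.56 ± 0.16 (adjusted p = 0.0243), while the Myd88KO groups overlapped and differed by 0.0089 ± 0.16. A second Irf1 probe differed by 0.50 in WT (adjusted p = 0.0963) and by 0.34 in Myd88KO.

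The Irf5 probe (chr6:29469047-29469106) read -1.46, -1.15, -0.29, -1.07 and -1.02 on uninjured and 0.035, 0.40, -0.78, 0.13 and 0.017 on injured WT arrays. Uninjured Myd88KO arrays read -1.20, -1.12, -1.12, -1.25 and -1.22, and injured ones -1.03, 0.30, -0.69, 0.24 and -1.51. Injured WT replicate 3 lay below uninjured WT replicate 3, the reverse of the other 4 slides. The differences were 0.96 ± 0.30 in WT (adjusted p = 0.0431) and 0.64 ± 0.30 in Myd88KO (adjusted p = 0.248). Irf7, the main amplifier of type I interferon production, differed by 0.88 ± 0.39 in WT (adjusted p = 0.158), and Stat2 by 0.81 ± 0.28 (adjusted p = 0.0692).

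Usp18, which removes Isg15 from proteins and dampens signalling at the type I receptor, lay on the other side. Its probe (chr6:121295796-121295855) read 1.62, 1.71, 1.27, 1.48 and 1.13 on uninjured and 0.69, 1.03, 0.19, 1.73 and 0.97 on injured WT arrays. In Myd88KO it read 1.48, 1.40, 2.23, 2.07 and 1.34 uninjured and 0.88, 0.47, 0.83, 1.09 and 0.57 injured. The Myd88KO groups did not overlap, with a difference of -0.94 ± 0.24 (adjusted p = 0.0385), and the WT groups overlapped through injured replicate 4, with a difference of -0.52 ± 0.24 (adjusted p = 0.171). Socs1, a feedback inhibitor of the receptor kinases, differed by 0.17 ± 0.21 in WT and -0.32 ± 0.21 in Myd88KO, and neither passed.

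Of the cytosolic sensors (5 tested probes of 3 genes), Zbp1 had the largest difference between injured and uninjured WT among the brightest probes of all members. Zbp1 senses Z-form nucleic acid and can start necroptosis. Its probe (chr2:172950998-172951057) read 0.75, 0.046, -0.29, 0.17 and 0.47 on uninjured and 2.19, 1.25, 1.46, 2.42 and 2.43 on injured WT arrays. Myd88KO arrays read 0.90, -0.28, 1.12, 0.60 and 0.57 uninjured and 1.08, 1.12, 0.72, 1.48 and -0.30 injured. No injured WT array overlapped an uninjured one, and Zbp1 rose by 1.72 ± 0.33, a 3.30-fold difference (adjusted p = 0.00241). In Myd88KO the difference was 0.24 ± 0.33 (adjusted p = 0.74). The responses differed by -1.49 ± 0.47, which did not pass (adjusted p = 0.391).

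Ddx58, the sensor RIG-I for viral RNA ends, had 3 tested probes. The brightest (chr4:40348348-40348407) read -0.15, -0.67, -0.93, -0.44 and 0.077 on uninjured and 0.80, 0.060, -0.16, 0.19 and 1.05 on injured WT arrays. In Myd88KO it read 0.31, -0.12, 0.35, -0.096 and -0.23 uninjured and -0.67, -0.16, -0.16, -0.036 and -0.48 injured. Both pairs of groups overlapped, although the WT difference was above 0 on all 5 slides (0.63 to 0.98). It was 0.81 ± 0.23 in WT (adjusted p = 0.027) and -0.35 ± 0.23 in Myd88KO (adjusted p = 0.443). The other probes differed by 0.26 and 0.83 in WT, and neither passed. Ifih1, the sensor MDA5 for long double-stranded RNA, differed by -0.15 ± 0.25 in WT and -0.18 ± 0.25 in Myd88KO. Dhx58, their regulator LGP2, differed by 0.76 ± 0.29 (adjusted p = 0.0903) and -0.65 ± 0.29 (adjusted p = 0.221).

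The antiviral effectors were the largest group (29 tested probes). Their median difference on injury was 0.47 in WT, with 23 of 29 above 0, and -0.37 in Myd88KO, with 4 of 29 above 0. Over all tested probes 50% and 42.3% were above 0. In WT 9 of 29 were higher at adjusted p under 0.05 and none was lower, against 7.74% and 4.98% of all probes. In Myd88KO none passed in either direction, against 1.27% and 1.96% of all probes. Ifitm3, which blocks the entry of enveloped viruses through endosomes, was the effector called at adjusted p under 0.01. Its probe (chr7:137426955-137427014) read 4.84, 4.14, 4.29, 4.07 and 4.42 on uninjured and 5.69, 4.95, 5.02, 5.31 and 5.42 on injured WT arrays. Myd88KO arrays read 4.79, 4.33, 4.73, 4.42 and 4.82 uninjured and 4.22, 4.98, 4.12, 4.82 and 4.17 injured. Injured WT arrays stood above all uninjured WT arrays, and 3 of 5 injured Myd88KO arrays lay below all uninjured Myd88KO arrays, while replicates 2 and 4 lay within or above their range. Ifitm3 rose by 0.93 ± 0.20 in WT (adjusted p = 0.00534, 0.00223 to 0.0201 over the alternatives, 8 of which took it past 0.01). The Myd88KO difference was -0.16 ± 0.20, and injured Myd88KO differed from injured WT by -0.82 ± 0.20 (adjusted p = 0.068).

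Rsad2, or viperin, makes a chain-terminating nucleotide that stops viral RNA synthesis. Its brightest probe (chr12:24278814-24278873) read -0.84, -1.01, -1.53, -0.79 and -1.72 on uninjured and 0.67, 0.14, -1.26, 0.36 and 1.14 on injured WT arrays. Myd88KO arrays read -0.25, -0.82, -0.68, -0.72 and -1.35 uninjured and -0.82, -1.40, -1.42, -1.35 and -2.30 injured. Injured WT replicate 3 lay within the uninjured range and the other 4 injured WT arrays above it. On each of the 5 slides the injured WT array was above the uninjured WT array and the injured Myd88KO array below both the uninjured Myd88KO and the injured WT array. The differences were 1.39 ± 0.36 on injury in WT (2.62-fold, adjusted p = 0.0143), -0.69 ± 0.36 on injury in Myd88KO (adjusted p = 0.293) and -1.67 ± 0.36 between injured Myd88KO and injured WT (adjusted p = 0.0287). The responses differed by -2.08 ± 0.50 (adjusted p = 0.39). Over 30 alternatives the adjusted p for WT injury ran from 0.00135 to 0.0864 and was under 0.01 in 3. Between the injured groups it ran from 0.000761 to 0.396 and was under 0.01 in 1. The lowest value of each range came without injured WT replicate 3. The other 2 probes of Rsad2 differed by 1.60 and 1.66 in WT (adjusted p = 0.0127 and 0.0178).

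Ifit3 belongs to a family that binds viral RNA, and Isg15 is a ubiquitin-like protein attached to new proteins. Ifit3 (brightest probe at chr19:34289919-34289978) read 1.85, 1.48, 0.51, 1.25 and 1.20 on uninjured and 2.57, 2.07, 1.17, 2.99 and 3.25 on injured WT arrays. On Myd88KO arrays it read 2.78, 1.46, 2.21, 2.14 and 1.96 uninjured and 2.01, 1.23, 1.32, 1.65 and 0.77 injured. Injured was above uninjured on 5 of 5 slides in WT and below it on 5 of 5 slides in Myd88KO, although the groups overlapped. The differences were 1.15 ± 0.35 (adjusted p = 0.0341) and -0.71 ± 0.35 (adjusted p = 0.268), and the responses differed by -1.86 ± 0.49 (adjusted p = 0.39). Its dimmer probe differed by 1.24 in WT and -0.74 in Myd88KO (adjusted p = 0.17 and 0.512). On that probe uninjured WT replicate 5 read -6.40, against -3.85 to -3.23 on the other arrays of its group, so the WT difference leans on 1 dim array.

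Isg15 read 0.65, 0.37, -0.43, 0.16 and 0.51 on uninjured and 1.36, 1.01, 0.054, 1.83 and 2.31 on injured WT arrays. Myd88KO arrays read 0.88, 0.23, 1.23, 0.78 and 0.77 uninjured and 0.58, 0.42, -0.10, 0.58 and -0.41 injured. All injured WT arrays but replicate 3 lay above the uninjured WT range, and the difference was 1.06 ± 0.33 (adjusted p = 0.0415). For Myd88KO it was -0.57 ± 0.33 (adjusted p = 0.365). The files place the Isg15 probe on chr17:44534906-44534965, whereas RefSeq has Isg15 on chromosome 4, so which transcript it reads is less sure than for the other named genes.

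Oasl1 and Oas3 belong to the oligoadenylate synthetase family, which detects double-stranded RNA. Oasl1 (chr5:114158380-114158439) read -0.67, -1.18, 0.74, -0.66 and 0.033 on uninjured and 0.70, 1.39, -0.50, 1.28 and 0.71 on injured WT arrays. On Myd88KO arrays it read -0.75, -0.72, -0.12, -0.80 and -0.50 uninjured and -0.42, 0.20, -0.24, -0.36 and -0.89 injured. Slide 3 ran the other way in WT, with the highest uninjured and the lowest injured array. The difference was 1.06 ± 0.35 in WT (adjusted p = 0.0497, blocked on slide 0.07, and 0.00957 without injured WT replicate 3) and 0.23 ± 0.35 in Myd88KO.

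The brightest tested Oas3 probe (chr5:119990944-119991003) was dim, with -3.92, -4.38, -4.12, -4.50 and -4.61 on uninjured and -3.74, -4.0, -4.54, -3.11 and -3.92 on injured WT arrays. Uninjured Myd88KO arrays read -4.58, -4.06, -2.98, -3.97 and -4.32, and injured ones -4.57, -3.91, -3.71, -3.50 and -4.70. Its groups overlapped throughout, and the WT difference was 0.44 ± 0.30 (adjusted p = 0.372). A dimmer Oas3 probe was well above background on 1 of 5 uninjured and 5 of 5 injured WT arrays, and on 2 of 5 and 4 of 5 Myd88KO arrays. Its fitted WT difference of 2.08 (adjusted p = 0.0101) therefore rests on an uninjured level mostly not well above background, and its size is uncertain. For Parp14, an ADP-ribosyltransferase, the probes disagreed, at 0.12 for the brightest and 0.81 (adjusted p = 0.0191) for another.

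**Figure D4:**
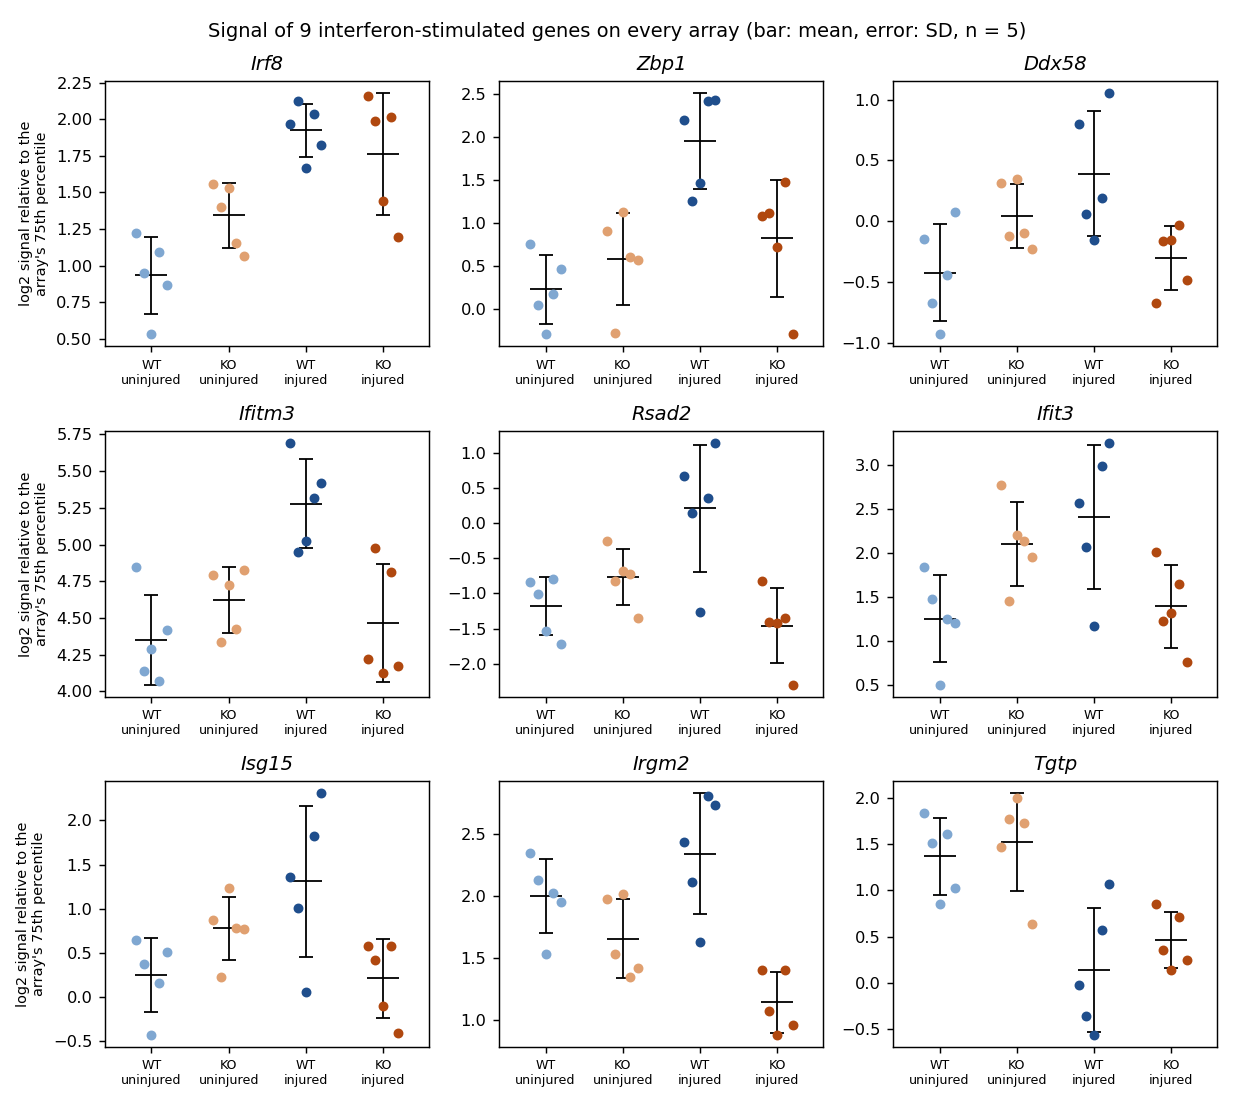
Signal of 9 interferon-stimulated genes on every array (vertical axis, log2 relative to the 75th percentile of the array; brightest probe) in uninjured and injured WT and Myd88KO tracheas; points are arrays, bars the mean and error bars the SD of 5 arrays. Irf8, Zbp1 and Ifitm3 separate injured from uninjured WT arrays, Rsad2, Ifit3 and Isg15 do so except for 1 low injured WT array, and for Irgm2 all injured Myd88KO arrays lie below all injured WT arrays.

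The remaining effectors did not pass at adjusted p under 0.05. Bst2, or tetherin, which holds budding virus on the cell, differed by 0.85 ± 0.29 in WT and -0.51 ± 0.29 in Myd88KO (adjusted p = 0.0646 and 0.36), and the responses differed by -1.36 ± 0.42 (adjusted p = 0.391). Oas1a, Oas2, Oasl2, Mx2, Ifit2, Ifit1, Eif2ak2 and the brightest probe of Mx1 differed by 0.19 to 0.64 in WT, and none passed. Mx1 differed by 0.59 ± 0.45 in Myd88KO, above its WT value of 0.21 ± 0.45. Below 0 in WT were Ifi44 at -1.07 ± 0.38 (adjusted p = 0.0732), Isg20, an exonuclease, at -0.35 ± 0.27, Ifi35 at -0.33 ± 0.16 and Ifitm1 at -0.31 ± 0.27. In Myd88KO, Ifi44 differed by -1.05 ± 0.38 and Ifi35 by -0.51 ± 0.16, and neither passed.

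The interferon-inducible GTPases (5 tested probes of 5 genes) had the smallest median difference on injury in WT of the 4 roles, 0.20, and a median of -0.33 in Myd88KO. Gbp2, a guanylate-binding protein (chr3:142530694-142530753), read 1.11, 0.87, 0.58, 0.83 and 1.14 on uninjured and 1.84, 1.14, 1.15, 1.77 and 1.61 on injured WT arrays. In Myd88KO it read 1.62, 1.38, 1.32, 1.04 and 1.04 uninjured and 1.20, 1.18, 1.21, 1.28 and 0.85 injured. The lowest injured WT array read just above the highest uninjured one, and the WT groups differed by 0.60 ± 0.17 (adjusted p = 0.0247), and the Myd88KO difference was -0.14 ± 0.17 (adjusted p = 0.701).

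Tgtp, an immunity-related GTPase of T cells and macrophages with a near-identical neighbour that a probe may also read, was the only member lower on injury in WT at adjusted p under 0.05. Its brightest probe (chr11:48943424-48943483) read 1.84, 1.51, 0.85, 1.61 and 1.03 on uninjured and -0.021, -0.36, -0.56, 0.57 and 1.07 on injured WT arrays. On Myd88KO arrays it read 1.47, 1.77, 2.00, 1.73 and 0.64 uninjured and 0.85, 0.35, 0.14, 0.72 and 0.25 injured. Both pairs overlapped, through injured WT replicate 5 and uninjured Myd88KO replicate 5. The differences were alike in size, -1.23 ± 0.30 in WT (adjusted p = 0.0111) and -1.06 ± 0.30 in Myd88KO (adjusted p = 0.0588), with 0.17 ± 0.43 between them. Igtp, Iigp1 and Ifi47 differed by 0.17 to 0.26 in WT and by -0.52 to -0.23 in Myd88KO.

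Among the 5 genes found under an older name, Irgm2 was called between the injured groups. It is named here after its values were seen. Irgm2 regulates other immunity-related GTPases. The probe (chr11:58304107-58304166, array name Iigp2) read 2.35, 2.13, 1.53, 2.02 and 1.95 on uninjured and 2.43, 2.11, 1.62, 2.80 and 2.73 on injured WT arrays. In Myd88KO it read 1.98, 1.53, 2.01, 1.34 and 1.42 uninjured and 1.40, 1.07, 0.88, 1.40 and 0.96 injured. Every injured Myd88KO array lay below every injured WT array, which held for 1.26% of all tested probes. The Irgm2 difference was -1.20 ± 0.22 (2.29-fold lower, adjusted p = 0.00756), and it was -0.74 to -1.77 within the 5 slides. Over 30 alternatives the adjusted p ran from 0.00107 to 0.202 and was under 0.01 in 13. Between the uninjured groups the difference was -0.34 ± 0.22, and Irgm2 was the only one of the 5 genes below 0 there. The responses differed by -0.86 ± 0.31 (adjusted p = 0.391). Of the 7 tested probes of these 5 genes, that of Irgm2 was the only one called at adjusted p under 0.01 in any comparison. Between the injured groups 0.38% of all probes were called.

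**Figure D5:**
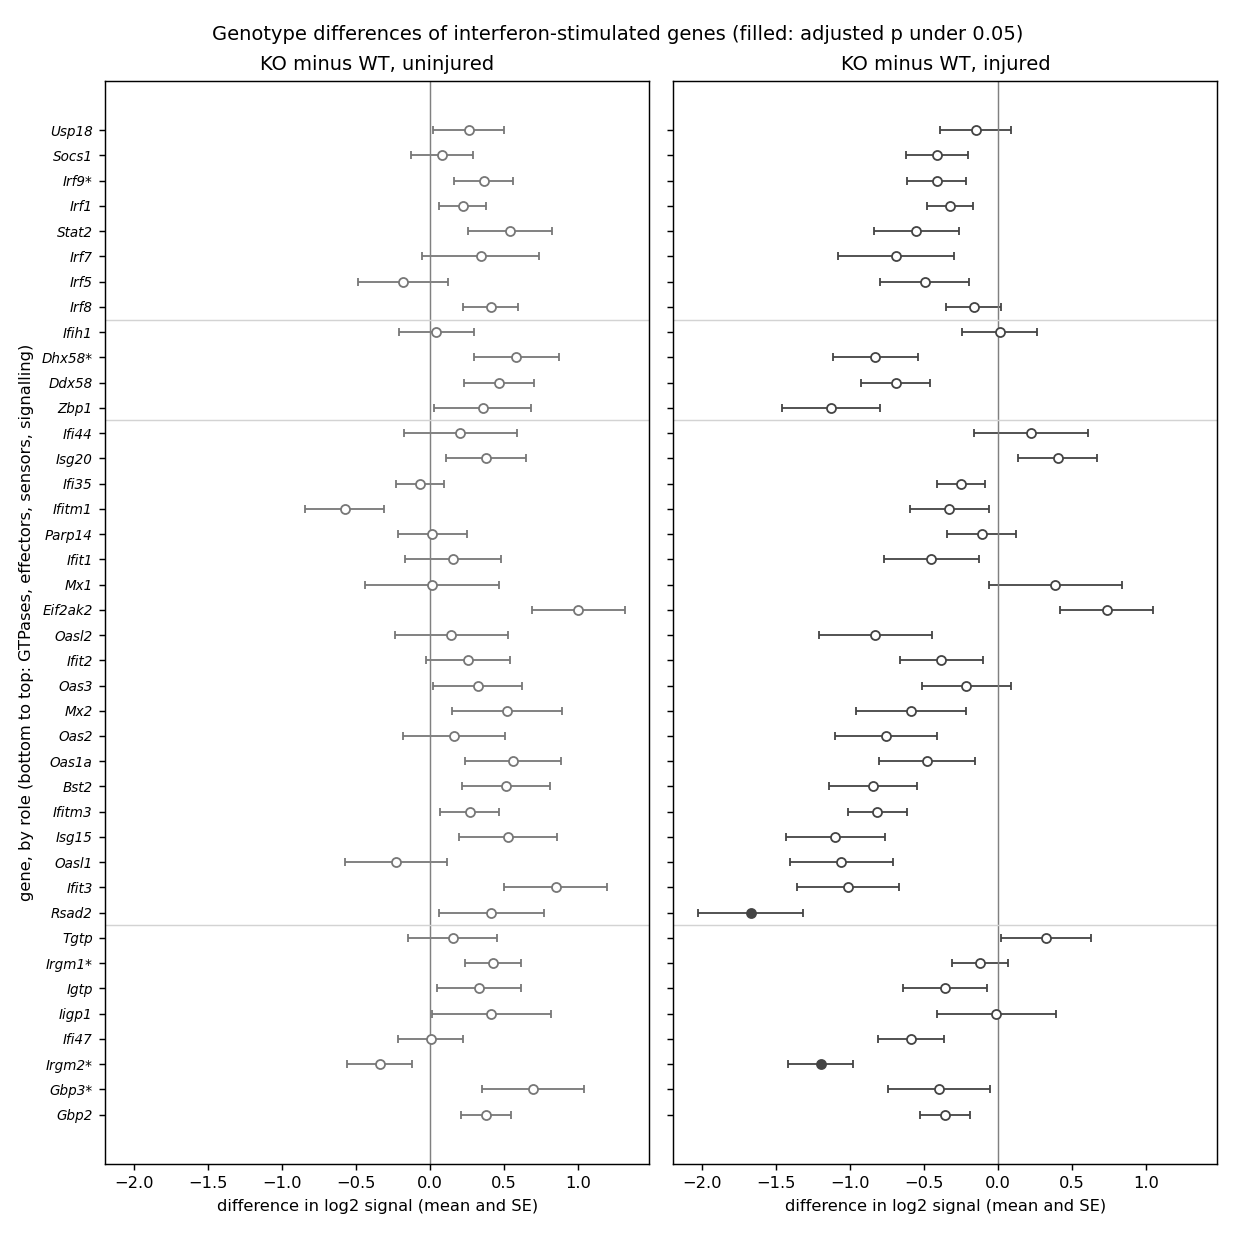
Difference in log2 signal between Myd88KO and WT tracheas (horizontal axis, mean and SE from the fit) for the brightest tested probe of each gene, uninjured (left) and injured (right), in the same order of genes. Filled points passed adjusted p under 0.05, and an asterisk marks genes found under an older name. Uninjured points lie mostly just above 0, up to 1.00 for Eif2ak2, and injured points mostly below 0, with Rsad2 at -1.67 and Irgm2 at -1.20 filled.

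The interferon genes themselves were mostly at background. Of 13 found on the array, 4 were tested (Ifna13, Ifna9, Ifnab and Ifnz), and none was called in a comparison, the differences on injury in WT being -0.049 to 0.56. Ifnb1, the type I interferon made first by most cells, was well above background on 0 of 20 arrays, and the 2 probes of Ifng, the type II interferon, on 2 and 4 of 20. Those were Myd88KO arrays throughout, 1 uninjured and 1 injured for the first probe and 3 uninjured and 1 injured for the second, and 0 of 10 WT arrays. All 11 genes of receptor signalling found on the array were tested, and 10 of 11 were above 0 on injury in WT (median 0.38), against 50% of all tested probes. Ifnar1 was higher by 0.64 (adjusted p = 0.045) and Il28ra, a chain of the type III receptor, was lower, at -0.60 (adjusted p = 0.0215). Of 12 genes upstream of interferon induction, Tlr7, a receptor for single-stranded RNA that signals through Myd88, rose by 1.82 in WT (adjusted p = 0.00889) and differed by 1.13 in Myd88KO (adjusted p = 0.155).

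Other interferon-induced genes were examined as a second list. Of 29 tested, 5 rose at adjusted p under 0.01 on injury in WT and none was called in Myd88KO, against 5.26% and 0.376% of all probes called in either direction. The medians were 0.54 in WT and -0.059 in Myd88KO, against 9.91e-05 and -0.069 over all probes, so in Myd88KO the second list lay near all probes. The 5 were Slfn2 (1.64), Ifi30, a lysosomal thiol reductase (1.49), Samhd1, which depletes nucleotides (1.15), Adar, an RNA editing enzyme (0.94), and Ifitm2 (0.78). At adjusted p under 0.05, 10 were higher and 1, Ifi202b, was lower in WT, against 7.74% and 4.98% of all probes. Cxcl10, a chemokine, was among the 10 higher genes at 1.95 (adjusted p = 0.0403) and differed by -0.56 in Myd88KO. Between the injured groups 27 of 29 lay lower in Myd88KO and 2 of 29 above 0 (median -0.43). Over all tested probes 45.3% were above 0, with a median of -0.034. Of the 27, Ifitm6, at -1.89 (adjusted p = 0.0476), passed the looser threshold, as 0.449% of all probes did on the lower side.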

How the data were processed

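Whole-trachea RNA of 20 mice was hybridised to 1-colour Agilent arrays. The authors deposited scanner files from Agilent Feature Extraction 9.5.1.1, whose processed intensity is background-subtracted and detrended but not scaled between arrays, and a value table holding the same intensity, rounded. Groups came from the labels, and replicates are biological per the study.

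Each array had 45018 spots, of which 1639 controls were left out. Over all 20 arrays together, 1960 outlier-flagged spot values were also left out, and spots of a probe were averaged. The log2 intensity was taken relative to the 75th percentile of the array. Probes well above background on at least 10 of 20 arrays were tested with limma 3.58.1 (R 4.3.3) over all 4 groups, with Benjamini-Hochberg adjustment per comparison and a threshold of 0.01. The number of arrays limits the precision. The fit was tested on simulated data. Arrays of 1 group correlated at 0.925 to 0.990.

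Members, lists and motifs were chosen with earlier results of these data known. Named genes were up to 14 members with a probe called in a comparison, then under an alternative, largest difference first, each given by its brightest probe. Alternatives changed background correction, scaling, filter, blocks, weights, samples fitted, test and threshold, and left out each array. Positions are as in the files, whose genome build is not given in the sources used here.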

Additional observations from a re-analysis of the deposited data

Results flagged for a closer look

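In 1 of 56 groups of 5 arrays examined over the 14 named genes, a single array stood apart: the Gbp2 signal of injured Myd88KO replicate 5 was 0.851, against 1.18 for the nearest array of its group, a gap of 0.767 of the range of that group. The critical value for 5 arrays is 0.71, and chance puts about 1 in 20 groups beyond it. The same array was lowest of its group on 28 of 48 member probes.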

How the results depend on the processing

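The number of member probes called on injury in WT was 3 as reported and 1 with the methods' one-way test, 5 with only the 2 groups fitted, 6 each with normexp background correction, the scanning day as a block and array weights, 17 at adjusted p under 0.05, and 2 to 10 when 1 array was left out (10 without injured WT replicate 3, 6 without injured Myd88KO replicate 5). On injury in Myd88KO it was 0, and 1 at adjusted p under 0.05. Between the injured groups it was 0, 2 at adjusted p under 0.05, and 0 to 3 when 1 array was left out. With the replicate number as a block, the number of calls was 6 on injury in WT and 1 between the injured groups (Rsad2), and the block changed no other count of calls. Same-numbered arrays correlated at -0.262 to 0.476 (30 pairs, 23 over 0.1), and 10 of 20 arrays correlated best with their own number, so the numbers, which follow the slides, were not taken as pairs of animals. The cause of these changes was not tested.

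The median difference of the member probes kept its sign in each of 30 alternatives, but some of these cannot move it by construction. These are the looser threshold, no filter on dim probes, the blocks, the choice of groups fitted and leaving out an array of another group. The median ranged from 0.364 to 0.612 on injury in WT, -0.328 to -0.162 in Myd88KO, 0.158 to 0.356 between the uninjured groups, -0.561 to -0.263 between the injured groups and -0.765 to -0.479 for the difference between responses. Of 681 values of single named genes under alternatives, 658 kept their direction and side of the threshold, 9 lost the call, 14 gained one and 0 changed sign. The values belong to 23 results, of which only Irf8, Zbp1 and Ifitm3 on injury in WT were called as reported. Only these could lose a call, and most of the 658 were uncalled results that stayed uncalled. Of 30 alternatives, Irf8 kept its call in 30, Zbp1 in 29 and Ifitm3 in 22. Over all tested probes, the number called was 1372 as reported and 2598 with array weights or 2106 with the scanning day as a block on injury in WT. On injury in Myd88KO it was 98, and 1904, 361 and 0 with array weights, the scanning day as a block and only the compared groups fitted. It was 1075 without injured Myd88KO replicate 5 and 6 without injured Myd88KO replicate 2 or 4, so the share of all probes called there depends on single arrays. The array weights were lowest for injured Myd88KO replicates 1 and 5, at 0.32 and 0.323.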
